A study of Arabidopsis thaliana with 4 samples.

Results

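Transcripts of 10 marker genes of abscisic acid (ABA) and of dehydration were examined in dark-grown hypocotyls of Arabidopsis thaliana with and without a working SHORT-ROOT (SHR) gene. The 10 were chosen by gene identifier as RAB18, RD22, RD29A, LTI65, KIN1, KIN2, COR47, ERD10, COR15A and NCED3, out of 32538 genes in the table, and all 10 were found. The series compared shr-2, a mutant of the GRAS-family transcription factor SHR, with the wild type Col-0, the accession in which both groups are labelled. Both had 2 libraries, called biological duplicates, and nothing says whether they came from separate cultures, so p-values measure only the spread between these libraries. Seeds of both groups germinated for 24 hours on MS medium, seedlings grew in darkness at 22 °C, and hypocotyls were cut at 5 days of age. Some label fields conflict: the tissue entry reads root tip, and in the mutant libraries the genotype entry gives an SCL28 overexpressor, so groups follow the titles.

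ABA is the plant hormone of water shortage and seed dormancy. It is made from plastid carotenoids, and NCED enzymes catalyse the cleavage step that usually limits its rate. When ABA binds PYR/PYL receptors, these hold back clade A protein phosphatases, which frees SnRK2 kinases to activate ABF transcription factors. ABFs bind the ABA-responsive element (ABRE) of target genes such as RAB18 and LTI65, while DREB/CBF factors act on the dehydration-responsive element (DRE) of genes such as RD29A and COR15A under cold or drought. The products of many of these genes are hydrophilic proteins of the dehydrin and LEA groups, which protect membranes and proteins in drying or freezing cells.

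Values were FPKM, fragment counts divided by transcript length and by the mapped fragments of the library. SHR read 28.4 and 28.9 FPKM in Col-0 and 2.57 and 3.45 FPKM in shr-2 (limma, log2 fold change -2.90, adjusted p = 0.00049), in the direction that the titles give. The highest value of any of 6 root tip and root hair markers was 0.345 FPKM, and that of any of 5 seed and embryo markers 0.466 FPKM. Across genes, libraries correlated at r = 0.984 within Col-0, 0.981 within shr-2 and 0.900 to 0.911 between genotypes. Low FPKM values multiplied by transcript length in kilobases were taken from a preset window of 0.025 to 0.06. Their median put 1 fragment per kilobase at 0.0429 to 0.0440 FPKM, an estimate bounded by this window.

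The marker genes did not move one way in shr-2. RD22, RD29A, KIN1 and KIN2 rose, RAB18 and NCED3 fell, and LTI65, ERD10 and COR47 did not pass the test. COR15A stayed near 0 FPKM and was below the filter of a mean of 1 FPKM. Of the 9 tested genes 4 rose and 2 fell (limma, Benjamini-Hochberg adjusted p under 0.05), where 27.6% of the 19920 genes tested were called, 13.9% higher and 13.7% lower. In all 9 tested genes both libraries of a genotype lay beyond both of the other, which was so for 66.2% of all genes tested. The authors' deposited table called 6 of the 10 and 24.8% of the genes that it tested, and it did not test COR15A. Its 6 include LTI65 and leave out RAB18, unlike the 6 called by limma. Without Col-0 replicate 1 the number that rose was 2, and without either Col-0 library the number that fell was 1. The median log2 fold change of the 9 was 0.50, against 0.01 over all genes tested. KIN1 passed the filter through its shr-2 libraries alone, so these counts and this median describe the 9 genes and support nothing further. In bulk tissue, fewer cells of a type and less RNA per cell cannot be told apart.

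**Figure D1:**
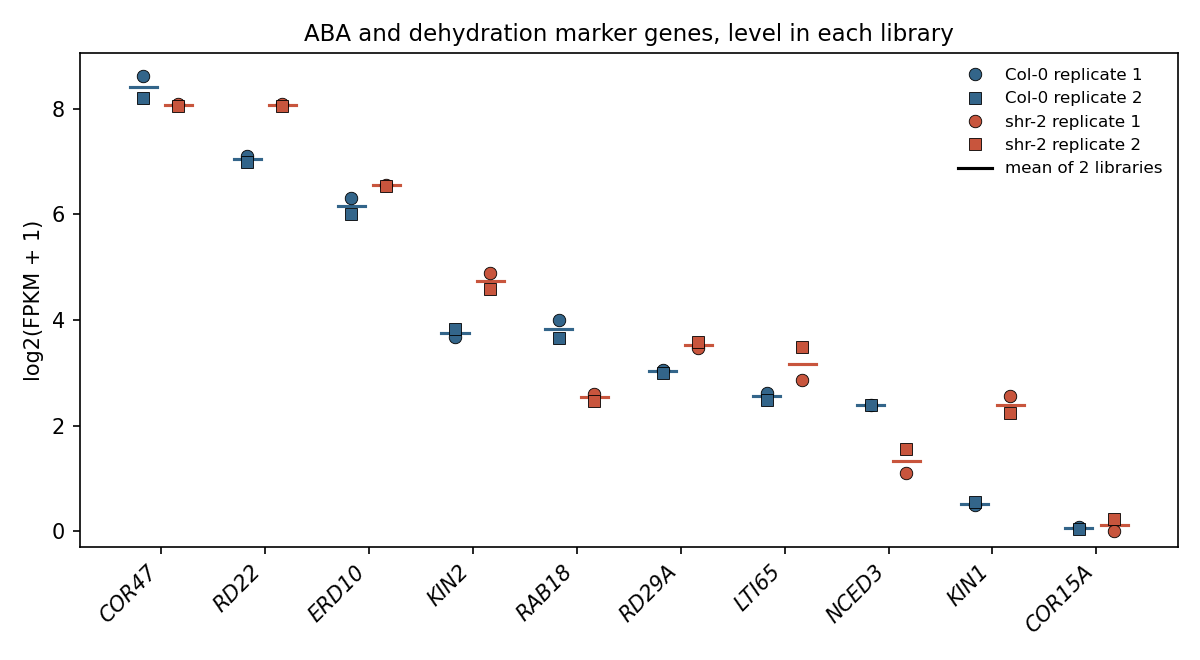
Level of each marker gene in each library, as log2(FPKM + 1) on the vertical axis, with genes ordered by their mean over 4 libraries. Circles and squares are replicates 1 and 2, blue is Col-0, red is shr-2 and lines are means of 2 libraries. COR47 and RD22 lie highest and COR15A near 0, RAB18 and NCED3 lie lower in shr-2, and KIN1 lies well above its wild-type level.

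The levels spanned a wide range. On the FPKM scale, which is per transcript length, COR47 stood highest in Col-0 with a mean of 344 ± 70.8 FPKM (SD, n = 2), followed by RD22 at 132 ± 7.58 and ERD10 at 70.8 ± 10.8 FPKM. RAB18 and KIN2 came next with ranges that overlapped, then RD29A, LTI65, NCED3, KIN1 and COR15A, each range clear of the next. In shr-2 both RAB18 values lay below those of KIN2, RD29A and LTI65. The ranges of COR47 and RD22 overlapped in shr-2, as did those of RD29A and LTI65 and those of RAB18 and KIN1.

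NCED3 (AT3G14440, chromosome 3, 4831286 to 4834015 in TAIR10.1) encodes the cleavage enzyme that drives ABA synthesis in drying shoots. It read 4.25 and 4.24 FPKM in the Col-0 libraries and 1.16 and 1.95 FPKM in the shr-2 libraries. The wild-type libraries were nearly equal, and both mutant libraries lay below them. The mean was 2.73-fold lower in shr-2, and on the log2(FPKM + 1) scale the difference was -1.06 (standard error 0.18, limma, adjusted p = 0.0146). The call was lost without Col-0 replicate 1 (adjusted p = 0.0861) or Col-0 replicate 2 (adjusted p = 0.0817). The other NCED genes, NCED2, NCED5, NCED6 and NCED9, had means under 1 FPKM, and NCED6 was listed at 0 in all 4 libraries.

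RAB18 (AT5G66400, chromosome 5, 26518277 to 26519447) encodes a dehydrin widely used as a readout of ABA, and it fell as well. It read 15.1 and 11.7 FPKM in Col-0 and 5.10 and 4.52 FPKM in shr-2. Both mutant libraries lay below both wild-type libraries, a 2.79-fold lower mean with a log2 fold change of -1.30 (SE 0.15, limma, adjusted p = 0.00449). The call held with each library left out in turn (adjusted p 0.00819 to 0.0330), whereas the authors' deposited table did not call it (q = 0.0556). The RAB18 model shares 11 bases with PLP3B (AT5G66410) on the opposite strand, and PLP3B read 26.4 and 25.0 FPKM in Col-0 and 28.7 and 26.4 FPKM in shr-2 (limma, log2 fold change 0.10, adjusted p = 0.504). RAB18 is also known as a guard cell transcript. The summed level of 5 guard cell markers (FAMA, MYB60, KAT1, KAT2 and SLAC1) was 51.0 to 54.0 FPKM in Col-0 and 53.4 to 69.8 FPKM in shr-2. Of these 5 genes 4 were tested and 0 were called by limma, with 1 at an unadjusted p under 0.05 and 1 called in the authors' deposited table.

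The genes whose profile over the 4 libraries lay nearest to that of RAB18 were AT3G48940, a remorin family gene, AMY1 (AT4G25000), an alpha-amylase, and BZIP1 (AT5G49450), a basic leucine zipper factor. Nearness was the Euclidean distance between log2(FPKM + 1) profiles, each centred on its own mean, and came to 0.0560, 0.0580 and 0.0744. BZIP1 stood at 73.4 and 53.7 FPKM in Col-0 and at 26.0 and 23.8 FPKM in shr-2. With 4 libraries, such a profile holds little more than the difference between genotypes.

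RD22 (AT5G25610, chromosome 5, 8914122 to 8916856) encodes a BURP-domain protein induced by dehydration and by ABA through MYC2 and MYB2. It read 138 and 127 FPKM in Col-0 and 272 and 263 FPKM in shr-2. The 2 groups lay far apart, a 2.02-fold higher mean in shr-2 with a log2 fold change of 1.01 (SE 0.10, limma, adjusted p = 0.00276). The call held with each library left out (adjusted p 0.00936 to 0.0356). Transcripts of MYC2 and MYB2 read lower in shr-2, and any link of their levels to RD22 was not tested. MYC2 fell from 52.7 ± 0.844 to 36.4 ± 4.77 FPKM (limma, adjusted p = 0.0292), a call that held only without shr-2 replicate 2 among the 4 fits that left a library out (adjusted p 0.0289 to 0.140). MYB2 was under the filter and read 1.36 and 1.49 FPKM in Col-0 and 0.218 and 0.198 FPKM in shr-2.

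KIN1 (AT5G15960, chromosome 5, 5209717 to 5210826) and KIN2 (AT5G15970, 5211719 to 5212743) encode small cold- and ABA-inducible proteins and lie 892 bases apart on the same strand. They are near copies. Their coding sequences are shown because they bear on whether reads can be assigned to one gene or the other. Both are 201 bases long, with 10 differences between them (95.02% identity). The differences are in capitals, 5′ to 3′, as read from TAIR10.1.
KIN1: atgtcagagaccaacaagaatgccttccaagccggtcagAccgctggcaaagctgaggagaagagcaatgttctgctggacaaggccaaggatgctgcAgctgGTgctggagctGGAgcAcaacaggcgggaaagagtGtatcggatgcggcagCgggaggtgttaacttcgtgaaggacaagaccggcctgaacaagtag
KIN2: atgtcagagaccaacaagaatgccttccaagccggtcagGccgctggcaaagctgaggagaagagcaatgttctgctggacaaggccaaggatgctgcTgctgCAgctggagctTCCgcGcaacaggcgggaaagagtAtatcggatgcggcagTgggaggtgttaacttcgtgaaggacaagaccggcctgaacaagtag
The longest stretch without a difference was 58 bases, and the transcripts aligned over 505 bases at 91.68% identity. This alignment covered 59.83% of the 829 bases of the KIN1 transcript and 67.07% of the 750 bases of the KIN2 transcript. No source used here states how reads matching both genes were assigned, so the split between them is uncertain.

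KIN1 read 0.412 and 0.461 FPKM in Col-0 and 4.87 and 3.69 FPKM in shr-2. It was barely detected in the wild type, and its mean was 9.81-fold higher in the mutant (limma, log2 fold change 1.87, SE 0.16, adjusted p = 0.00223). KIN2 read 11.8 and 13.2 FPKM in Col-0 and 28.9 and 23.1 FPKM in shr-2, a 2.08-fold higher mean (limma, log2 fold change 0.99, SE 0.14, adjusted p = 0.00745). KIN1 was called whichever library was left out, and KIN2 lost its call without Col-0 replicate 1 (adjusted p = 0.0622). The ratio of KIN2 to KIN1 within a library was 28.7 and 28.6 in Col-0 and 5.92 and 6.26 in shr-2. The deposited values thus assign KIN1 a larger part of the pair in both mutant libraries. This ratio does not depend on scaling between libraries, but it rests on the uncertain split of reads between the near copies. With 2 libraries a group, an exact permutation test cannot reach the threshold.

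RD29A (AT5G52310, chromosome 5, 21240717 to 21243644), also called COR78 and LTI78, and LTI65 (AT5G52300, 21237021 to 21239531), also called RD29B, are neighbouring genes on the same strand that encode related hydrophilic proteins. RD29A is known to answer to cold through DRE as well as to ABA, and LTI65 mainly to ABA through ABRE. The 300 bases before each annotated start are shown because they carry these elements, with the ABRE core ACGTG and the DRE core CCGAC, on either strand, in capitals (TAIR10.1, plus strand, 5′ to 3′). The RD29A stretch is chr5:21240417-21240716 and the LTI65 stretch is chr5:21236721-21237020.
RD29A: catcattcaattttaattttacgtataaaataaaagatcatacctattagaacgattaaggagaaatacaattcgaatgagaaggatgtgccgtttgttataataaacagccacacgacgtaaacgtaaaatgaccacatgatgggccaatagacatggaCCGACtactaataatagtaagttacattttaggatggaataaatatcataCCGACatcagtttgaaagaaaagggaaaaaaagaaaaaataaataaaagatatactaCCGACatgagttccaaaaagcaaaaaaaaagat
LTI65: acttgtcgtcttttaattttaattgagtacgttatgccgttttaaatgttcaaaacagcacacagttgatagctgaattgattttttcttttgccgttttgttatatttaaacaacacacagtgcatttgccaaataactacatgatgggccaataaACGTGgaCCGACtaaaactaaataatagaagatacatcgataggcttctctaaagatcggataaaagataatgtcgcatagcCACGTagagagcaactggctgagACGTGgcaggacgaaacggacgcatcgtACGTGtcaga
The RD29A stretch held 3 matches of the DRE core and 0 of the ABRE core, and the LTI65 stretch held 4 of the ABRE core and 1 of the DRE core. An absent match says only that these letters are not in this window.

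RD29A read 7.31 and 7.01 FPKM in Col-0 and 10.0 and 11.1 FPKM in shr-2, a 1.47-fold higher mean with a log2 fold change of 0.50 (SE 0.10, limma, adjusted p = 0.0236). Its libraries separated by genotype, but it was not called in any of the 4 fits that left a library out (adjusted p 0.0539 to 0.124). LTI65 read 5.17 and 4.63 FPKM in Col-0 and 6.27 and 10.2 FPKM in shr-2, and the mutant libraries lay far apart. Its log2 fold change of 0.61 (SE 0.22) did not pass (limma, adjusted p = 0.106), and it passed without shr-2 replicate 1 (adjusted p = 0.0149). The authors' deposited table called LTI65 (q = 0.000587). The ratio of LTI65 to RD29A within a library was 0.708 and 0.660 in Col-0 and 0.624 and 0.922 in shr-2, and the groups overlapped.

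**Figure D2:**
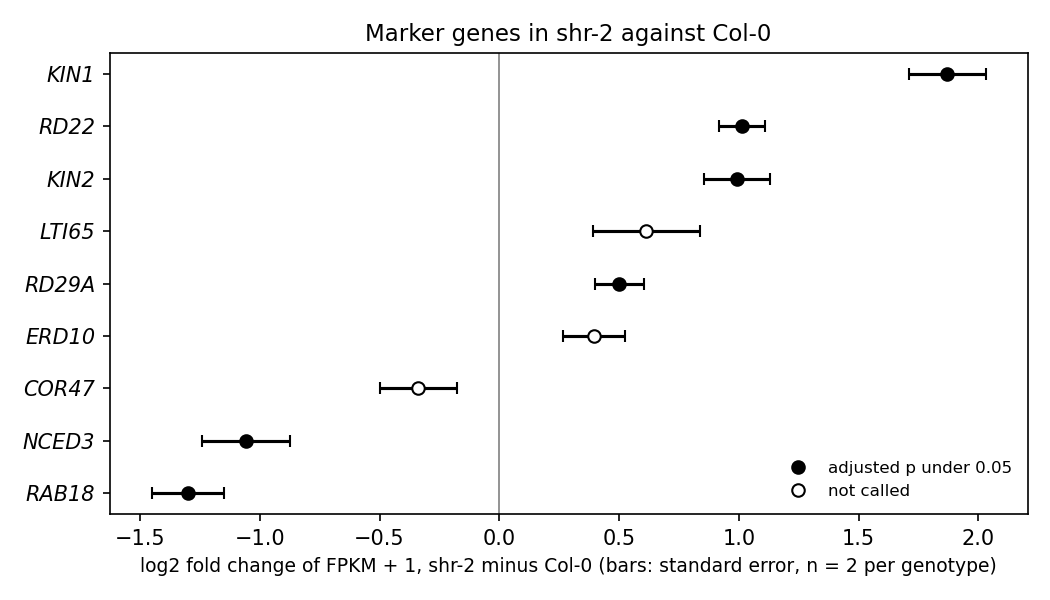
Log2 fold change of FPKM + 1 in shr-2 against Col-0 for the 9 marker genes tested, with standard errors from the limma fit (2 libraries per genotype) and filled points at an adjusted p under 0.05. KIN1 lies highest at 1.87 and RAB18 lowest at -1.30, with COR47, ERD10 and LTI65 not called.

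COR47 (AT1G20440, chromosome 1, 7084409 to 7086873) and ERD10 (AT1G20450, 7087903 to 7089606) encode acidic dehydrins and are neighbours on the same strand, 1029 bases apart. COR47 read 394 and 294 FPKM in Col-0 and 273 and 265 FPKM in shr-2. Both mutant values were below both wild-type values, but the wild-type libraries were far apart and the log2 fold change of -0.34 (SE 0.16) did not pass (limma, adjusted p = 0.189). ERD10 read 78.5 and 63.2 FPKM in Col-0 and 93.7 and 92.1 FPKM in shr-2, with a log2 fold change of 0.39 (SE 0.13) that did not pass either (limma, adjusted p = 0.0815). The ratio of COR47 to ERD10 was 5.02 and 4.65 in Col-0 and 2.91 and 2.88 in shr-2, without overlap. This ratio was not tested. Such separation of 2 against 2 libraries is common, since 66.2% of all single genes tested showed it. The COR47 and ERD10 transcripts are 72.98% identical over 1336 aligned bases, under the 90% taken here as a near copy.

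COR15A (AT2G42540, chromosome 2, 17710441 to 17712330) encodes a chloroplast stroma protein that stabilises membranes in the cold. It was listed at 0.0561 and 0.0364 FPKM in Col-0 and at 0 and 0.17 FPKM in shr-2. The groups overlapped, and no difference was detectable at this depth. Its neighbour COR15B read 2.02 and 1.22 FPKM in Col-0 and 2.02 and 2.52 FPKM in shr-2 and was not called.

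Among the 10 upstream stretches of 300 bases, 6 held the ABRE core and 3 the DRE core. Over 27443 protein-coding genes the shares of such stretches were 25.6% for the ABRE core and 13.9% for the DRE core. Overlapping matches, such as both strands of the palindrome in COR15A, counted once. RAB18, which fell, held 3 ABRE cores, and RD22, KIN1 and KIN2, which rose, held 1 each. RD29A, which also rose, held 0, and LTI65, which was not called, held 4. NCED3, COR47 and ERD10 held neither motif in this window. The RAB18 stretch lies within the oppositely oriented PLP3B model. The ABRE core stood before 27.9% of protein-coding genes called higher in shr-2, 28.5% of those called lower and 24.6% of those not called.

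**Figure D3:**
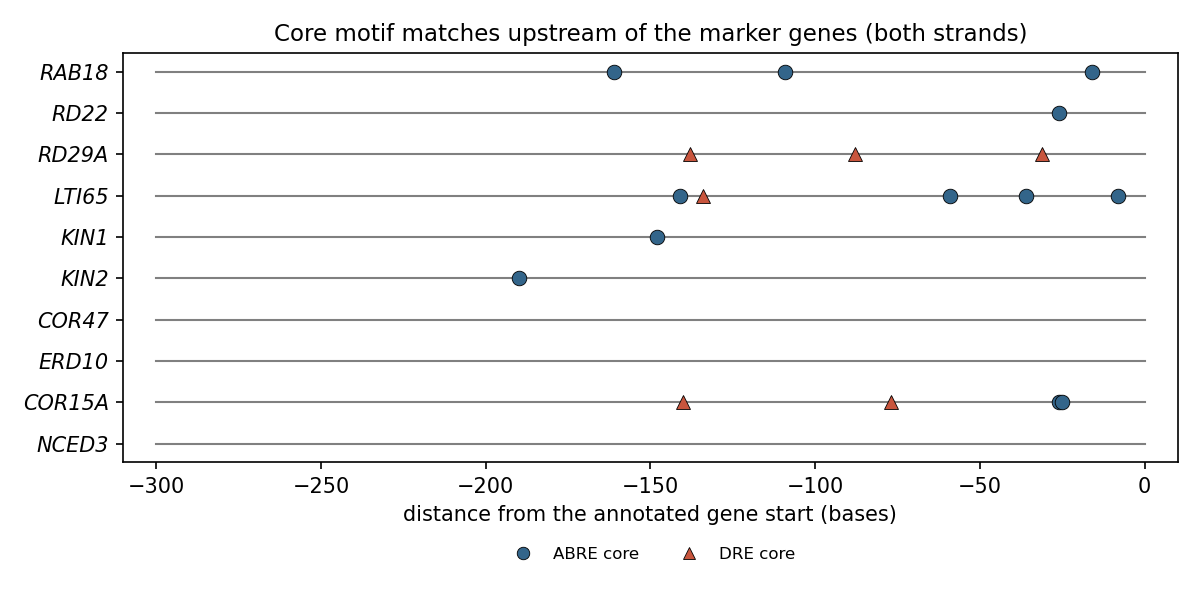
Matches of the ABRE core (blue circles) and the DRE core (red triangles) on either strand in the 300 bases before each annotated gene start, with the distance from the start in bases on the horizontal axis. RD29A carries DRE cores, LTI65 carries both kinds, RAB18 carries ABRE cores, and NCED3, COR47 and ERD10 carry neither.

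RAB18, COR47 and ERD10 belong to the dehydrins, a family of 10 genes here, of which 8 were tested. XERO1 rose, RAB18 fell and 6 did not pass, so 25% were called, near the 27.6% of all genes tested. XERO1 (AT3G50980) read 0.751 and 0.333 FPKM in Col-0 and 4.41 and 5.34 FPKM in shr-2 (adjusted p = 0.00294 in limma, log2 fold change 1.94, SE 0.19), and it passed the filter through shr-2 alone. Its call held whichever library was left out. HIRD11 (AT1G54410), a metal-binding dehydrin, read 920 and 649 FPKM in Col-0 and 1393 and 1071 FPKM in shr-2, which did not pass (limma, adjusted p = 0.0906). ERD14 (AT1G76180), an acidic dehydrin, read 1065 and 656 FPKM in Col-0 and 986 and 707 FPKM in shr-2, with replicates farther apart than genotypes. ERD14 had the higher mean of this pair in Col-0 and HIRD11 in shr-2. LTI30 and AT4G38410 had means of 1.29 ± 0.277 and 0.982 ± 0.254 FPKM in Col-0 and 1.74 ± 0.0680 and 1.86 ± 0.442 FPKM in shr-2, and were not called. AT2G21490 and AT4G39130 stayed at or under 0.125 FPKM.

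**Figure D4:**
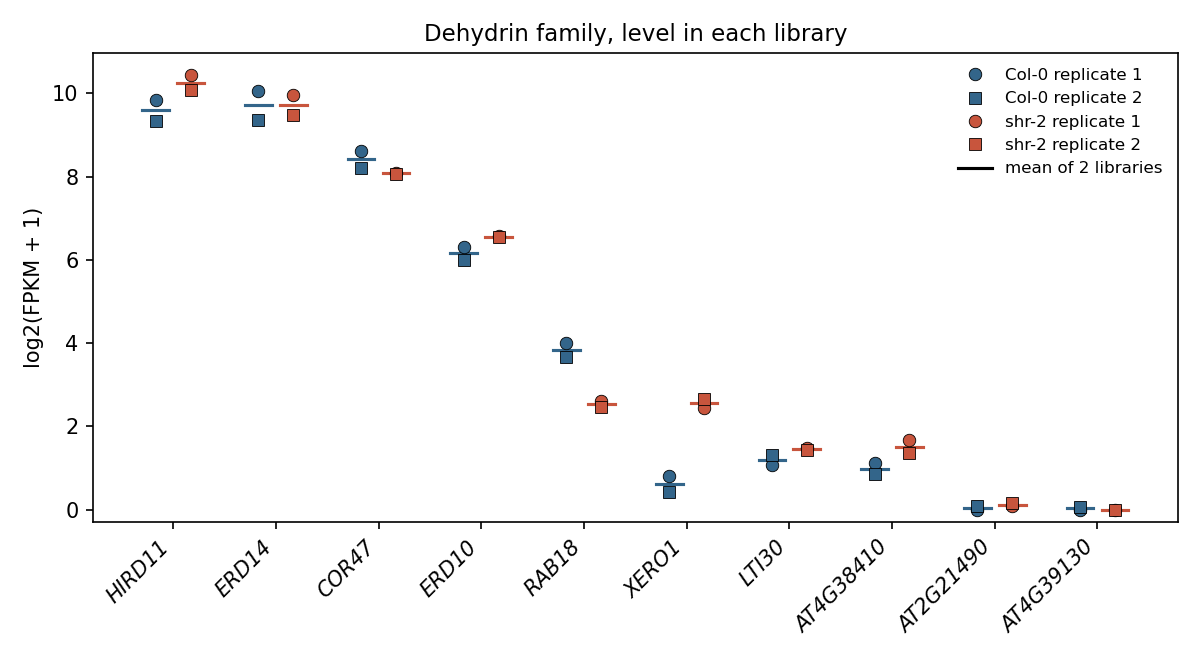
Level of the 10 dehydrin genes in each library as log2(FPKM + 1), ordered by their mean, with replicates 1 and 2 as circles and squares, Col-0 in blue, shr-2 in red and lines for means of 2 libraries. HIRD11 and ERD14 lie highest, XERO1 is higher and RAB18 lower in both shr-2 libraries, and AT2G21490 and AT4G39130 lie near 0.

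The rest of the ABA pathway was read from 9 lists with 98 genes, of which 71 were tested, 8 rose and 12 fell. The share called was 28.2%, near the 27.6% of all genes, and the median log2 fold change was -0.00. The number that fell was 4 without Col-0 replicate 1 and 4 without Col-0 replicate 2. The number that rose was 5 without Col-0 replicate 2 and 5 without shr-2 replicate 2.

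On the side of ABA supply, 4 of 8 tested synthesis genes rose and 1 fell (median log2 fold change 0.34), beside the fall of NCED3. The carotenoid hydroxylase genes BCH1 and BCH2, which act before the cleavage step, rose. BCH2 (AT5G52570) read 6.23 and 6.54 FPKM in Col-0 and 16.2 and 19.8 FPKM in shr-2 (limma, log2 fold change 1.36, adjusted p = 0.00267). BCH1 (AT4G25700) went from 13.9 ± 2.0 to 25.1 ± 3.02 FPKM (limma, adjusted p = 0.0154), and ABA1 (AT5G67030), the zeaxanthin epoxidase, from 14.3 ± 0.413 to 20.3 ± 2.83 FPKM (limma, adjusted p = 0.0463). Without Col-0 replicate 2 or shr-2 replicate 2 neither was called, and without Col-0 replicate 1 ABA1 was not called. ABA2 (AT1G52340), the xanthoxin dehydrogenase that acts after NCED3, read 5.22 and 4.70 FPKM in Col-0 and 10.7 and 10.7 FPKM in shr-2 (limma, log2 fold change 0.98, adjusted p = 0.00366). It overlaps other models on the opposite strand, as does BCH2. BGLU18 (AT1G52400), a glucosidase that releases ABA from its glucose ester, read 20.2 and 20.6 FPKM in Col-0 and 7.69 and 5.29 FPKM in shr-2 and fell (limma, difference -1.53 on the log2 scale, adjusted p = 0.00422).

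On the side of removal and transport, CYP707A3 (AT5G45340), an ABA hydroxylase, fell from 9.82 ± 2.11 to 4.66 ± 1.27 FPKM (limma, adjusted p = 0.0323), 1 of 3 tested genes of breakdown and conjugation. ABCG25 (AT1G71960), an ABA exporter, rose from 21.2 ± 1.54 to 30.9 ± 1.40 FPKM (limma, adjusted p = 0.0186), 1 of 3 tested transporters. Each of these calls was lost in 3 of the 4 fits that left a library out, with adjusted p up to 0.149 for CYP707A3 and 0.103 for ABCG25. CYP707A3 was called only without shr-2 replicate 2 and ABCG25 only without shr-2 replicate 1.

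Of 9 tested receptor genes 1 rose and 2 fell. PYL2 (AT2G26040) read 0.389 and 0.441 FPKM in Col-0 and 4.22 and 3.09 FPKM in shr-2 (limma, log2 fold change 1.71, adjusted p = 0.00313), and passed the filter through shr-2 alone. PYL5 (AT5G05440) fell from 38.2 ± 3.46 to 18.3 ± 1.42 FPKM (limma, adjusted p = 0.00391), and PYL9 (AT1G01360) from 18.1 ± 1.37 to 13.4 ± 0.697 FPKM (limma, adjusted p = 0.0438), which none of the 4 fits with a library left out called. The receptor genes with the highest levels, PYL4 and PYL8, were not called.

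Of 7 tested clade A phosphatase genes, which both restrain and answer to ABA, 0 passed in limma, 3 had an unadjusted p under 0.05, and the authors' deposited table called 2. Without the mean-variance trend HAI2 was called higher (limma, adjusted p = 0.0471). HAI2 read 0.665 and 0.535 FPKM in Col-0 and 1.12 and 1.72 FPKM in shr-2, and passed the filter through shr-2 alone. ABI1 (AT4G26080) read 84.1 and 89.3 FPKM in Col-0 and 93.1 and 114 FPKM in shr-2 (limma, adjusted p = 0.215). PP2CA (AT3G11410) read 27.3 and 37.5 FPKM in Col-0 and 31.1 and 38.1 FPKM in shr-2, and the groups overlapped. Of the 5 SnRK2 kinase genes 3 fell (60%), where 13.7% of all genes tested were called lower. No set test was run on this short list. SNRK2.2 (AT3G50500) read 209 and 213 FPKM in Col-0 and 135 and 134 FPKM in shr-2 (limma, log2 fold change -0.65, adjusted p = 0.00683), a call lost without either Col-0 library (adjusted p up to 0.0627). SNRK2.8 (AT1G78290) fell from 31.1 ± 3.47 to 13.4 ± 0.516 FPKM (limma, adjusted p = 0.00302), and SNRK2.7 (AT4G40010) from 52.6 ± 2.05 to 36.1 ± 5.01 FPKM (limma, adjusted p = 0.0320). SNRK2.7 kept its call only without shr-2 replicate 1 among the fits that left a library out. SNRK2.3 and OST1, the other core kinases of ABA signalling, were not called. The models of SNRK2.8, SNRK2.3, ABI1, MYC2, DREB2A, ABF1, ABF3, ABF4, COR15B, SLAC1 and CASP1 overlap other genes on the opposite strand.

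Among transcription factors, MYC2 was called of 6 tested on the ABA list, and ABF1, ABF2, ABF3, ABF4 and ABI5 were not called. This count depends on the filter, since without it MYB2 was called lower (limma, adjusted p = 0.00509) and ABI4 higher (limma, adjusted p = 0.00659). ABI4 (AT2G40220), an AP2-type factor of ABA responses in seeds, was listed at 0 and 0.0347 FPKM in Col-0 and at 1.34 and 1.03 FPKM in shr-2. Without shr-2 replicate 2 the number of ABA factors called lower was 2. Of 7 tested DREB/CBF regulators, RAP2.1 (AT1G46768), a repressor of DRE-driven genes, fell from 11.3 ± 0.403 to 7.96 ± 0.853 FPKM (limma, adjusted p = 0.0384), which none of the 4 fits with a library left out called. DREB2A (AT5G05410) read 5.47 and 12.7 FPKM in Col-0 and 6.25 and 20.4 FPKM in shr-2, with replicate 2 the higher in both genotypes.

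Of 23 other tested genes responsive to ABA, cold or dehydration, 2 rose and 3 fell (21.7% called, median log2 fold change -0.08), and the authors' deposited table called 11 of the 29 on the list. The number that rose was 4 without shr-2 replicate 1, and the number that fell was 6 without shr-2 replicate 2 and 1 without either Col-0 library. CLO3 (AT2G33380), the caleosin also called RD20, read 19.5 and 17.4 FPKM in Col-0 and 86.7 and 69.6 FPKM in shr-2 (adjusted p = 0.00128 in limma, log2 fold change 2.02, SE 0.14). The other that rose was XERO1. AFP3 (AT3G29575), an ABI5-binding protein, fell from 82.9 ± 24.6 FPKM in Col-0 to 18.2 ± 1.17 FPKM in shr-2 (adjusted p = 0.00326 in limma, log2 fold change -2.10, SE 0.21). COR413IM1 (AT1G29395), a cold-regulated protein of the inner chloroplast envelope, fell from 30.0 ± 0.833 to 14.2 ± 2.53 FPKM (limma, adjusted p = 0.00672), and ERD1 (AT5G51070), a chloroplast Clp ATPase, from 58.1 ± 1.57 to 37.6 ± 2.99 FPKM (limma, adjusted p = 0.0113). COR413IM1 and ERD1 lost their calls without either Col-0 library, and CLO3 and AFP3 kept theirs whichever library was left out.

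**Figure D5:**
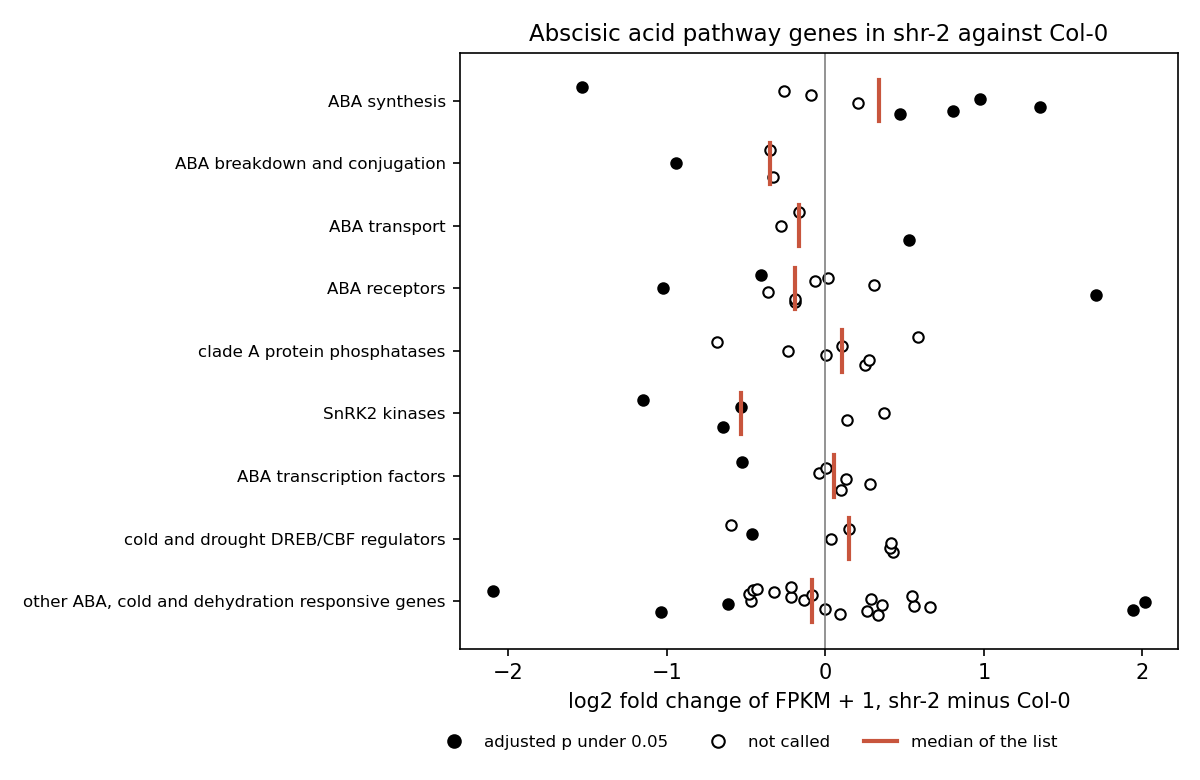
Log2 fold change of FPKM + 1 in shr-2 against Col-0 for the 71 tested genes of 9 ABA pathway lists, 1 point per gene, filled at an adjusted p under 0.05, with red lines for the median of each list. Genes that rose and genes that fell stand in the lists of synthesis, receptors and other responsive genes, and none of the 7 phosphatase genes was called in this fit.

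Endodermal markers moved with the genotype, and their part in these results was not tested. The summed level of SCR and CASP1 was 137 to 171 FPKM in Col-0 and 7.68 to 8.91 FPKM in shr-2. Both SCR and CASP1 were called lower by limma. The authors' deposited table called SCR (q = 0.000587) and did not call CASP1 (q = 0.285). The summed level of the phloem companion cell markers SUC2 and APL was 68.7 to 73.9 FPKM in Col-0 and 63.0 to 80.2 FPKM in shr-2. The groups of these markers overlapped. Of these 2 genes 0 were called by limma, 1 had an unadjusted p under 0.05, and the authors' deposited table called 0.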

How the data were processed

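Hypocotyl RNA of 4 samples was prepared with a stranded mRNA kit, per the labels' protocols. The tools named in the submitters' processing notes are CASAVA (1.8.2), TopHat2 (2.0.13) and Cuffdiff (2.2.0), with TAIR10 as the build. Gene models are Araport11, per the file headers. The authors computed FPKM for every gene and library and deposited these values. The authors also deposited a comparison table with a log2 fold change per gene, made from their group mean FPKM. The q-values that the authors deposited in that table are quoted as theirs. No source used here states whether counting used strand.

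The 19920 of 32538 genes that averaged 1 FPKM or more were analysed as log2(FPKM + 1), and both genotypes entered 1 limma fit with a mean-variance trend (limma 3.58.1, R 4.3.3; 2 residual degrees of freedom, prior 3.02), 2-sided, Benjamini-Hochberg over all genes kept. The test was tried on simulated data first. This scale understates changes of low genes. The members and lists were chosen with earlier results of these data known. Named were all members and dehydrins, SHR and SCR, the 3 genes nearest to RAB18, and up to 4 called genes per list by adjusted p, or the 2 of highest mean where none was called. ABA1, ERD1, MYB2, ABI4, HAI2, EM1, LEA14, DREB2A, COR15B, CRU3 and PLP3B were named after their values were seen. So were other NCED genes and other list members that were not called. Sequences, coordinates and overlaps come from TAIR10.1 (RefSeq), in which the deposited locus contained every member gene and equalled all but RAB18. Transcripts were compared with blastn 2.17.0. Alternatives were a pseudocount of 0.1, no filter, median centring, no trend, a replicate block and leaving out each library.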

Additional observations from a re-analysis of the deposited data

How the results depend on the processing

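The direction of the 9 tested marker genes was the same under every alternative run. The calls of these 9 were unchanged with a pseudocount of 0.1 FPKM, without the filter, with libraries centred on their median and without the mean-variance trend. Other calls near the threshold did change. Without the filter ABA1 (adjusted p = 0.0672), CYP707A3 (0.0603), PYL9 (0.0586) and RAP2.1 (0.0604) were not called. ABI4, MYB2, EM1 and the seed marker CRU3 then entered the test and were called. Without the trend ABA1 (0.0542) and PYL9 (0.0515) were not called and HAI2 was, and with centring LEA14 was called (0.0437). Centring moved a library by at most 0.03 on the log2 scale. With a replicate block ERD10 was also called (adjusted p = 0.0208). Under this block the pathway genes called were 16 higher and 23 lower, and all genes called were 4486 higher and 4243 lower, against 2778 and 2725 without it. Differences between replicates correlated across genes between the genotypes at r = 0.305, but with 2 pairs and no label for a shared batch the samples share only a number. With 1 library left out, where the lone sample is assumed to vary like the other genotype, the marker genes called were 2 to 4 higher and 1 to 2 lower, and the pathway genes 5 to 11 higher and 4 to 14 lower. All genes called were then 1056 to 2158 higher and 1112 to 1994 lower. The precision is limited by 2 libraries per genotype, and read counts were not used.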
